A study of Mus musculus with 6 samples.

Results

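Forkhead transcription factors were followed as a family of 40 genes in RNA-seq read counts of mouse primordial germ cell-like cells (PGCLCs), out of 37991 gene IDs in the count table. The members were given as a list of gene symbols, and 39 of them matched a gene ID of the table; Foxl1 did not match and was not analysed here. Each member was assigned to a class from general knowledge of where it acts. The classes hold 25 lineage-restricted genes, 2 genes of the epiblast (Foxd3 and Foxh1), and 8 genes that most cells use (the Foxo and Foxk genes, Foxm1 and Foxj3). A further 5 widely expressed genes (Foxj2, Foxn2, Foxn3, Foxp1 and Foxp4) were kept apart.

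PGCLCs are a culture model of newly specified germ cells, and embryonic stem cells reach this state after a short epiblast-like step. All 6 libraries derive from C57BL/6 embryonic stem cells with floxed Ezh2 alleles and the tamoxifen-activated recombinase CreERT2, per the labels' protocols. The 3 Ctrl libraries (genotype Ezh2f/f, CreERT2) came from aggregates that received ethanol, and the 3 Ezh2 KO libraries (genotype Ezh2-/-, CreERT2) from aggregates that received 4-hydroxytamoxifen in ethanol. All were taken on day 4 of culture with BMP2, SCF, LIF and EGF and were sorted before RNA extraction. Because the Ctrl cells received no 4-hydroxytamoxifen, loss of Ezh2 and exposure to the compound cannot be told apart. The labels name 1 genotype of line and do not say whether the replicates were separate inductions, so p-values measure only the spread between these libraries, which may be technical.

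Forkhead proteins bind DNA through a winged-helix domain, and many of them specify single tissues: FOXA proteins open chromatin in endoderm, FOXC and FOXF proteins act in mesoderm, and FOXN4 acts in retinal and spinal progenitors. FOXO proteins relay insulin and growth factor signals, FOXK proteins recruit the BAP1 deubiquitinase, and FOXM1 drives genes of cell division. The Ezh2 protein carries the catalytic activity of polycomb repressive complex 2, which places H3K27me3 on the promoters of many tissue-specific regulators. The comparison of Ezh2 KO with Ctrl asks whether such regulators depend on the enzyme in early germ cells.

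Total counts ran from 27072150 to 49382146 per library, and 16420 genes were abundant enough to test. Ezh2 itself stood at 78.1 to 95.3 CPM (reads scaled to library size by TMM) in the Ctrl libraries and at 40.8 to 70.0 CPM in the Ezh2 KO libraries. Its difference did not pass (log2 fold change -0.58 ± 0.23 SE, adjusted p = 0.976 in edgeR's quasi-likelihood test). Whether the remaining reads came from exons outside the deleted part was not tested, since counts are per gene. Markers of germ cells were present in every library, with Dppa3 at 135 to 255 CPM and Tfap2c at 143 to 315 CPM. On the first principal component (55.5% of the variance) the outermost libraries were Ctrl replicate 1 on one side and Ezh2 KO replicate 2 on the other. The loadings of genes went with the GC share of their transcripts (Spearman's rho across genes -0.54, a description, since all genes share the libraries).

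The family split by level rather than by group. Of the 39 matched members, 18 were abundant enough to test, among them all 5 of the other widely expressed genes, 7 of the 8 genes that most cells use, both epiblast genes and 4 of the 24 matched lineage-restricted genes. The other 21 were not tested: 4 had no read in any library, 11 had 1 to 9 reads in all and 6 had at least 10. No member passed edgeR's quasi-likelihood test at an adjusted p of 0.05 (0 of 18, with 0% of all tested genes called). At an unadjusted p under 0.05 stood 1 of the 18 members, Foxa3, where 2.8% of all tested genes did. DESeq2 without a block called 0 members (0.122% of all genes) and limma-voom 0 members. Of the 18, 10 had a log2 fold change below 0, against 48.7% of all tested genes, and the median was -0.06 against 0.01 over all tested genes. In bulk RNA such as this, fewer cells of a type and less RNA per cell cannot be told apart.

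**Figure D1:**
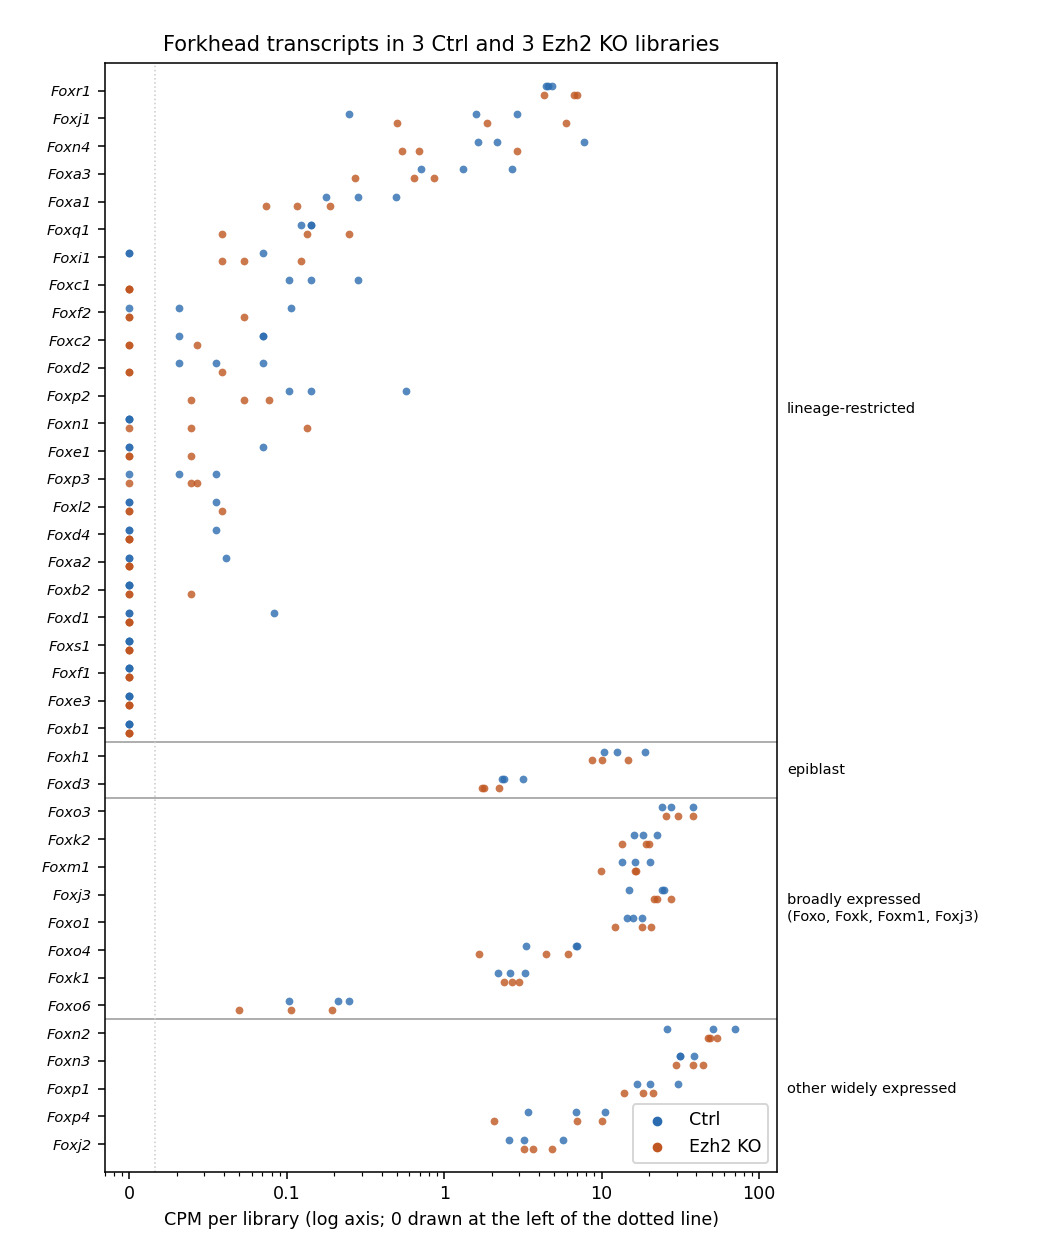
CPM of the 39 matched forkhead genes in each library, on a log axis with 0 drawn apart, for Ctrl (blue, 3 libraries) and Ezh2 KO (orange, 3 libraries), ordered within class by mean level per length. Only 4 lineage-restricted genes, at the top, reach 1 CPM in any library, while 12 of the 13 genes that most cells or many tissues use lie above 1 CPM throughout.

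Compared per transcript length, the most abundant member was Foxh1, at 10.2 RPKM (CPM per kilobase of exon) in Ctrl and 8.17 RPKM in Ezh2 KO. It was followed by Foxn2 (6.68 and 6.82 RPKM), Foxo3 (3.93 and 4.15), Foxk2 (3.61 and 3.33) and Foxn3 (2.95 and 3.25). Foxm1, Foxr1 and Foxj3 came next on the RPKM scale, at 2.91, 2.01 and 1.95 in Ctrl. Among Foxo3, Foxk2, Foxn3 and Foxm1 these gaps are small beside the spread of their libraries, so their order is not firm. Exon lengths were taken from an annotation of another build than the counts, which limits these levels to rough ranks.

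None of the genes that most cells use differed beyond the spread of its libraries. Foxo3, a transcription factor held out of the nucleus by growth factor signalling, had 24.1, 37.8 and 27.4 CPM in Ctrl and 37.9, 25.6 and 30.7 CPM in Ezh2 KO, in the order of replicates 1 to 3 as in all such sentences that follow. The groups overlapped fully, and the log2 fold change was 0.08 with a 95% interval of -0.49 to 0.65. Foxo1, its paralog, averaged 16.1 ± 1.77 CPM in the Ctrl group and 16.9 ± 4.35 CPM in the Ezh2 KO group (SD, n = 3 each), with a log2 fold change of 0.06 (-0.52 to 0.65). Foxo4, the X-linked member of this subfamily, varied more. It stood at 6.93, 6.88 and 3.29 CPM in Ctrl and at 6.15, 1.66 and 4.42 CPM in Ezh2 KO, so that 1 library of each group lay well below its other two (-0.48, -1.62 to 0.67). Foxo6, known mainly from brain, had 18 reads in all Ctrl libraries together and 11 in Ezh2 KO, too few to test.

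Foxk2, which brings the BAP1 complex to DNA, was at 18.3, 22.6 and 16.1 CPM in Ctrl and 13.4, 19.3 and 19.9 CPM in Ezh2 KO. The groups overlapped, and the log2 fold change was -0.11 with a 95% interval of -0.68 to 0.45. Its paralog Foxk1 averaged 2.69 ± 0.539 CPM in the Ctrl group and 2.68 ± 0.287 CPM in the Ezh2 KO group (SD, n = 3 each). Foxm1, the activator of late cell cycle genes, was at 20.4, 16.4 and 13.4 CPM in Ctrl and 16.6, 9.96 and 16.3 CPM in Ezh2 KO (-0.23, -0.87 to 0.42). Foxj3 was at 15.0, 24.3 and 24.7 CPM in Ctrl and at 21.7, 22.5 and 27.5 CPM in Ezh2 KO (0.16, -0.42 to 0.74). For Foxj3 the Ctrl replicate 1 library was the low one, and all other libraries lay close together. Over the 7 tested genes of this class the median log2 fold change was -0.00. All 8 genes of the class together summed to 112 ± 13.7 CPM in the Ctrl group and 111 ± 8.80 CPM in the Ezh2 KO group (SD, n = 3 each).

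The same held for the 5 other widely expressed members. Foxn2 had the highest CPM of the family and the largest SD in CPM among Ctrl libraries, with 26.2, 70.6 and 50.7 CPM, against 47.2, 49.0 and 54.3 CPM in Ezh2 KO. The 3 Ezh2 KO values thus lay inside the Ctrl range (log2 fold change 0.03, 95% interval -0.72 to 0.78). Foxn3, a repressor linked to cell cycle checkpoints, was at 31.6, 31.4 and 38.8 CPM in Ctrl and at 29.5, 44.4 and 38.2 CPM in Ezh2 KO (0.14, -0.36 to 0.63). Foxp1 had 16.8 to 30.6 CPM in Ctrl and 13.8 to 21.1 CPM in Ezh2 KO (log2 fold change -0.35, and -0.54, -0.29 and -0.14 within the 3 pairs of the same replicate number). Foxp4 had 3.40 to 10.5 CPM in Ctrl and 2.08 to 10.1 CPM in Ezh2 KO (-0.12, -1.47 to 1.23). Foxj2 had 2.60 to 5.68 CPM in Ctrl and 3.20 to 4.84 CPM in Ezh2 KO (0.04, -0.81 to 0.88). Genes annotated on the opposite strand overlap Foxj2, Foxj3, Foxn3, Foxo1 and Foxp4, and their reads cannot be told apart here, since no use of strand is stated.

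**Figure D2:**
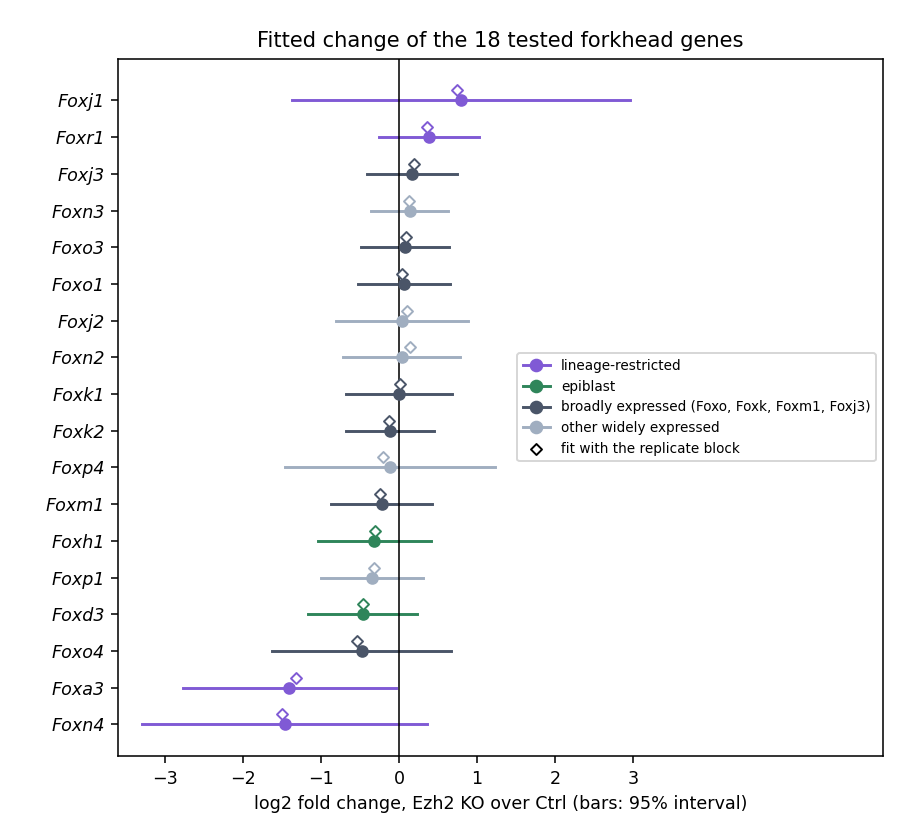
Log2 fold change (Ezh2 KO over Ctrl) of the 18 tested forkhead genes from edgeR, with bars for the 95% interval, coloured by class; open diamonds give the fit that has a block for replicate number. The interval excludes 0 for Foxa3 alone, before adjustment, and the intervals of Foxj1 and Foxn4 are the widest.

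Both epiblast genes were expressed in all libraries, and their means were somewhat lower in Ezh2 KO without passing the test. Foxd3, which maintains pluripotent and neural crest cells, stood at 3.17, 2.34 and 2.41 CPM in Ctrl and at 1.74, 2.24 and 1.78 CPM in Ezh2 KO. Every Ezh2 KO library was below every Ctrl library, by a narrow margin at the nearest values. Its log2 fold change was -0.47 ± 0.30 SE (adjusted p = 0.976 in edgeR's quasi-likelihood test, with a 95% interval of -1.17 to 0.23). The exact two-sided permutation p was 0.1, and a design of 3 against 3 cannot go lower. Foxd3 was the 1 member of the 18 with such a lack of overlap, and 4.03% of all tested genes were lower in this way (4.07% were higher). When each library was adjusted for transcript GC content the log2 fold change of Foxd3 was 0.05 ± 0.46 SE, and -0.09 ± 0.34 SE with the replicate block added. Without Ctrl replicate 1 and Ezh2 KO replicate 2, the outermost libraries, it was -0.43. With 1 library left out it ran from -0.58 to -0.31. Foxd3 transcripts are 65.1% G and C, the highest share among the tested members. The part of GC content in the Foxd3 difference was not tested.

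Foxh1, the partner through which activated SMAD proteins reach Nodal target genes, was at 18.8, 12.5 and 10.4 CPM in Ctrl and at 14.8, 8.69 and 9.98 CPM in Ezh2 KO. The groups overlapped, and in both of them replicate 1 was the highest library (log2 fold change -0.32 ± 0.31 SE, 95% interval -1.04 to 0.41). The 14 SMAD partners and targets fixed beside it were all tested, with 8 positive and 6 negative log2 fold changes, a median of 0.07 and 0 called. The Nodal antagonist Lefty2, a direct target of FOXH1, was at 265, 177 and 165 CPM in Ctrl and at 324, 292 and 238 CPM in Ezh2 KO (0.49, unadjusted p = 0.04995, adjusted p = 0.976 in edgeR). Tdgf1, the Nodal coreceptor, had a log2 fold change of 0.33 (unadjusted p = 0.0981 in edgeR's quasi-likelihood test).

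Among lineage-restricted members, 4 were abundant enough to test, and 2 had a lower and 2 a higher mean in Ezh2 KO. Their median log2 fold change of -0.51 over 4 genes summarises values from -1.47 to 0.80. Foxn4, Foxj1 and Foxa3 spread widely between libraries, and Foxr1 did not. The median ratio of the highest to the lowest library was 12.1 for the 4, against 1.94 for the 12 tested genes that most cells or many tissues use. The median half-width of the 95% interval was 1.60 on the log2 scale against 0.65.

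Foxn4 had the lowest log2 fold change of the 18 tested members. This progenitor factor of retina and spinal cord stood at 7.69, 2.16 and 1.63 CPM in Ctrl and at 2.91, 0.541 and 0.692 CPM in Ezh2 KO. The ranges overlapped because replicate 1 was high in both groups. Within the 3 pairs of the same replicate number, the log2 ratio of Ezh2 KO to Ctrl was -1.40, -2.001 and -1.23. The labels state no such pairing. It was taken from these same counts, so the pair ratios and the fits with a block depend on it. Without a block the log2 fold change was -1.47 ± 0.79 SE (adjusted p = 0.976 in edgeR's quasi-likelihood test). With a block for replicate number it was -1.51 ± 0.29 SE, with an unadjusted p of 4.36e-04 and an adjusted p of 0.304 in edgeR. DESeq2 with the replicate block called Foxn4 as lower (-1.52 ± 0.37 SE, adjusted p = 0.0229), the 1 member among its 50 calls, which are 0.305% of the genes tested. With any 1 pair left out the call was lost (adjusted p = 0.9999, 0.736 and 0.248 in DESeq2 without pairs 1, 2 and 3), while the log2 fold changes were -1.62, -1.32 and -1.67. A fit with fewer libraries can lose a call at a like log2 fold change, so this loss cannot show whether the difference rests on 1 pair. With 1 library left out, the unblocked log2 fold change of Foxn4 ran from -2.63 without Ezh2 KO replicate 1 to -0.44 without Ctrl replicate 1, and without Ctrl replicate 1 and Ezh2 KO replicate 2 together it was -0.08. With a block, 2 of the 18 members had an unadjusted p under 0.05 (Foxn4 and Foxa3), where 9.1% of all tested genes did.

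Foxa3, a factor of liver and gut endoderm, stood at 2.70, 1.31 and 0.708 CPM in Ctrl and at 0.856, 0.270 and 0.642 CPM in Ezh2 KO. The top Ezh2 KO library lay above the lowest Ctrl library, so the groups overlapped. The log2 fold change was -1.41 ± 0.59 SE (unadjusted p = 0.0450, adjusted p = 0.976 in edgeR's quasi-likelihood test). Within pairs 1 to 3 the log2 ratio was -1.66, -2.28 and -0.14. With 1 library left out, the log2 fold change of Foxa3 ran from -1.76 without Ctrl replicate 3 to -0.75 without Ctrl replicate 1, and without Ctrl replicate 1 and Ezh2 KO replicate 2 together it was -0.43. The related endoderm factors were almost silent. Foxa2 had 2 reads in all, both in Ctrl replicate 1, and Foxa1 had 24, 5 and 8 reads in Ctrl and 7, 3 and 3 in Ezh2 KO. Of 10 other endoderm markers, 5 were tested, 3 with negative and 2 with positive log2 fold changes and 0 called; Cer1 had no read, and their summed level was 5.57 to 6.51 CPM in Ctrl and 4.74 to 7.92 CPM in Ezh2 KO.

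Foxj1, the master regulator of motile cilia, varied more between libraries than almost any gene of its level. It was at 2.91, 1.60 and 0.248 CPM in Ctrl and at 5.96, 0.502 and 1.88 CPM in Ezh2 KO, and the within-pair log2 ratios of 1.04, -1.67 and 2.92 disagreed in sign. The SD of log2 CPM within groups was 1.71, above that of 99.9% of the tested genes within 0.5 log2 CPM of its level. The log2 fold change of 0.80 had a 95% interval of -1.37 to 2.96, and without Ezh2 KO replicate 1 it was -0.41, and without the 2 outermost libraries 2.07. Of 13 matched genes of the motile cilium program, 8 were tested, 5 with positive log2 fold changes, and 0 were called. Tppp3 was at 5.26, 3.34 and 5.13 CPM in Ctrl and at 9.60, 6.64 and 7.34 CPM in Ezh2 KO, with an unadjusted p of 0.0283 in edgeR, and Rfx2, which works with Foxj1, had a log2 fold change of -0.37. Mcidas and Gmnc, the inducers of multiciliated cells, had no more than 0.0708 CPM in any library, and Spag17 had no read.

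Foxr1, a little-studied member known from testis and oocytes, was the steadiest of the 4. It was at 4.80, 4.54 and 4.46 CPM in Ctrl and at 6.71, 6.99 and 4.32 CPM in Ezh2 KO. Pairs 1 and 2 had a higher Ezh2 KO value and pair 3 did not (log2 ratios 0.48, 0.62 and -0.04), and the log2 fold change was 0.38 with a 95% interval of -0.26 to 1.03. Per length it was the most abundant lineage-restricted member, at 2.01 RPKM in Ctrl, above Foxj3 and Foxo1.

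**Figure D3:**
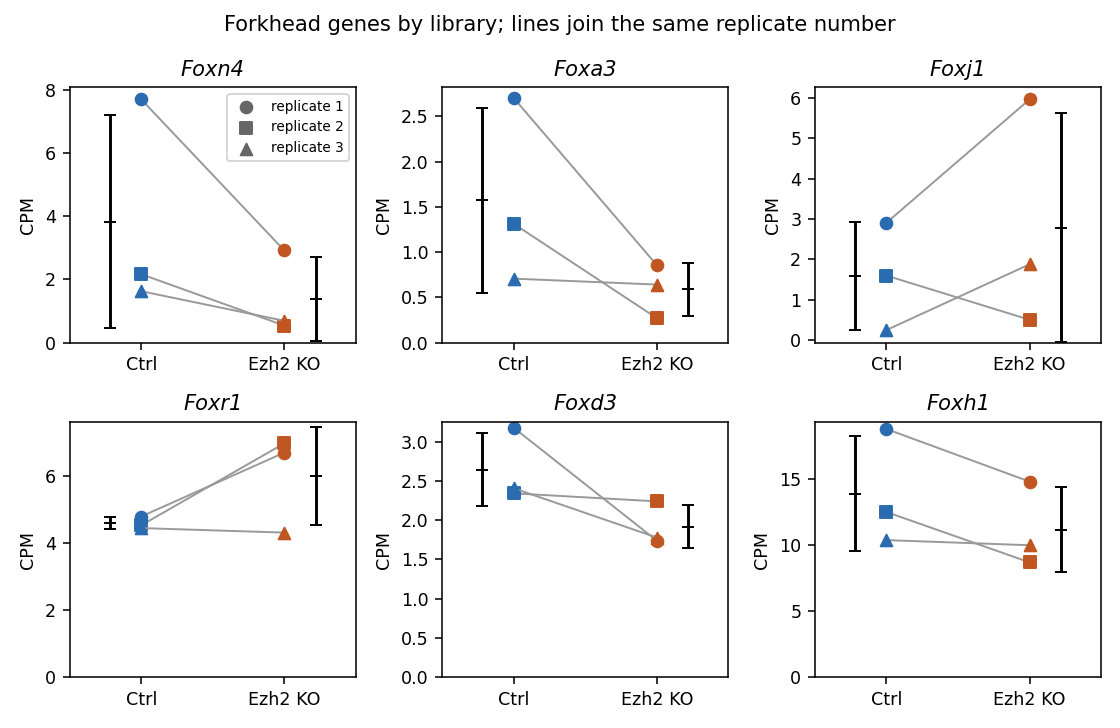
CPM of 6 forkhead genes in each library, with lines joining libraries of the same replicate number and black bars for the mean and SD of each group (n = 3). All 3 lines go down for Foxn4, Foxa3, Foxd3 and Foxh1, steeply in pair 1 for Foxn4 and Foxa3, whereas those of Foxj1 cross.

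Counted over the 18 tested members, 5 were lower in Ezh2 KO in each of the 3 pairs (Foxa3, Foxd3, Foxh1, Foxn4 and Foxp1), where 14.7% of all tested genes were. None of the 18 was higher in each pair, where 17.9% of all tested genes were. The outermost libraries, which lie at the ends of a component that itself went with GC content, were also compared member by member. From Ctrl replicate 1 to Ezh2 KO replicate 2, the log2 ratio was 0.91 for Foxn2 and 0.58 for Foxj3, whose transcripts are 44.4% and 44.3% G and C. It was -3.83 for Foxn4 (59.3%), -2.53 for Foxj1 (61.4%) and -2.33 for Foxp4 (63.5%). Other members did not follow this order. The ratio was -0.50 for Foxd3 (65.1%) and 0.09 for Foxo3 (57.7%), and at nearly the same GC share it was -3.32 for Foxa3 (54.4%) and 0.30 for Foxj2 (54.3%). Over the 18 members Spearman's rho between the GC share and this ratio was -0.67, given as a description since all points come from the same 2 libraries. With an offset for GC content the log2 fold changes of Foxn4 and Foxa3 were -1.22 and -1.30, and with the block added -1.26 and -1.23.

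**Figure D4:**
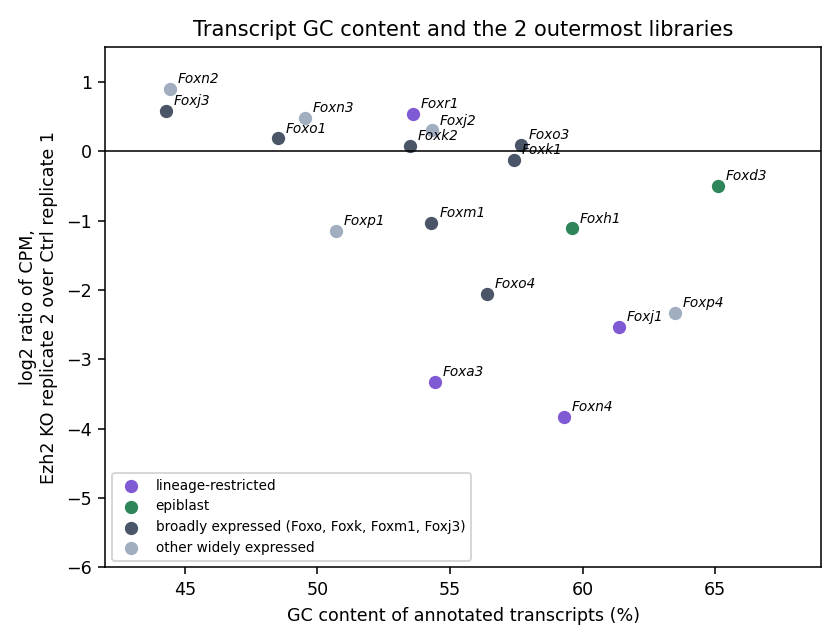
Log2 ratio of CPM between Ezh2 KO replicate 2 and Ctrl replicate 1, the ends of the first principal component, against the GC share of annotated transcripts, for the 18 tested forkhead genes by class. AT-rich members such as Foxn2 and Foxj3 lie above 0 and the GC-rich Foxp4, Foxj1 and Foxn4 below -2, while Foxd3, the most GC-rich, is at -0.50.

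The 20 matched lineage-restricted members that could not be tested were low in both groups. No such gene exceeded 0.247 CPM in any Ezh2 KO library, a value of Foxq1, or 0.568 CPM in any Ctrl library, a value of Foxp2. Together they had 50, 42 and 28 reads in Ctrl and 25, 9 and 23 reads in Ezh2 KO. Scaled to library size this was 1.03, 1.49 and 0.991 CPM in Ctrl and 0.669, 0.348 and 0.568 CPM in Ezh2 KO. Each Ezh2 KO library was thus lower than each Ctrl library. Of single untested genes with at least 10 reads in all, 4.79% were lower in this way, and no such share was computed for sums. Foxa1, Foxc1 and Foxp2 made up much of the gap. Their mean CPM was 0.318, 0.176 and 0.271 in Ctrl, against 0.126, 0 and 0.0518 in Ezh2 KO. The sums without Foxc1 and Foxp2 were 0.825, 0.639 and 0.708 CPM against 0.615, 0.270 and 0.543 CPM. These sums still hold Foxa1, which had 24 reads in Ctrl replicate 1 and 5 and 8 in the other Ctrl libraries. In CPM, Foxa1 stood at 0.495, 0.177 and 0.283 in Ctrl and at 0.187, 0.116 and 0.0741 in Ezh2 KO. With these values also taken off the sums, the groups overlapped and Ezh2 KO replicate 3 was the highest library.

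Foxc1, a regulator of mesenchyme and eye development, had 5, 8 and 4 reads in Ctrl and none in Ezh2 KO. Its pooled Ctrl level was 5.60-fold above a floor of 3 reads over the Ezh2 KO group. This ratio takes the 17 Ctrl reads as exact, so it covers neither their counting error nor the spread between libraries. Foxc1 was also singled out because it had no read in Ezh2 KO. Foxp2, known from brain and lung, had 5, 16 and 4 reads in Ctrl and 2, 2 and 1 in Ezh2 KO, and most of its Ctrl level came from replicate 2. Of the 6 untested members with at least 10 reads in all, these 2 were lower in each Ezh2 KO library than in each Ctrl library and 0 were higher, where 4.79% of such untested genes were lower. With no filter on low counts Foxc1 had an unadjusted p of 0.00279 and Foxp2 one of 0.0234 in edgeR's quasi-likelihood test, and both had an adjusted p of 0.879. Foxc2 and Foxf2, which act in mesoderm, had 5 and 4 reads in Ctrl and 1 and 2 in Ezh2 KO.

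Not all genes of this class were lower in Ezh2 KO. Foxi1, Foxn1, Foxq1 and Foxb2 had more reads there than in Ctrl and Foxl2 had as many, all at low counts. Foxi1, a factor of inner ear and kidney ionocytes, had 2 reads in Ctrl and 8 in Ezh2 KO, and Foxn1, required for thymic epithelium and hair, had 0 and 6, of which 5 were in Ezh2 KO replicate 1. Foxq1, known from stomach and hair, had 14 and 16 reads. Foxd1 had 4 reads, all in Ctrl replicate 1, and Foxb2, Foxd2, Foxd4, Foxe1, Foxl2 and Foxp3 had 1 to 5 reads over the 6 libraries. Foxb1, Foxe3, Foxf1 and Foxs1 had no read in any library, which allows up to 0.0144 CPM over all libraries together. Changes among genes at such levels were not detectable at this depth.

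**Figure D5:**
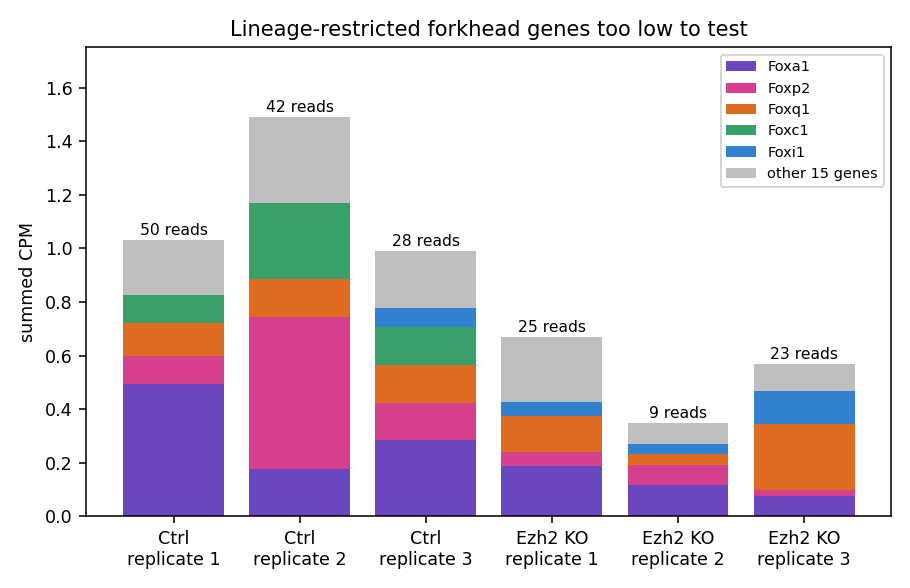
Summed CPM of the 20 matched lineage-restricted forkhead genes that were too low to test, per library, stacked by gene, with the number of reads above each bar. The Ctrl bars reach 0.991 to 1.49 CPM and the Ezh2 KO bars 0.348 to 0.669 CPM, and the green Foxc1 segment is seen in the 3 Ctrl bars only.

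Polycomb targets are, as background, mostly genes with CpG-rich promoters, so the CpG content of the promoter windows was read from RefSeq sequences of GRCm38.p6 (250 bases before to 50 bases after each start site). Of the 40 members 25 matched, and 22 had a single window. Lineage-restricted members had 6 to 32 CpG sites per 300 bases (14 windows, median 19) and the genes that most cells or many tissues use 6 to 59 (7 windows, median 35), against a median of 7 over all 32851 windows of the table. The windows of the 2 tested members with the lowest log2 fold changes, of Foxr1 as a lineage-restricted gene that was not lower, of Foxc1 as a gene with no read in Ezh2 KO, and of Foxo3 as a widely expressed contrast are shown 5′ to 3′ on the gene's own strand, with CpG sites in capitals.
Foxn4: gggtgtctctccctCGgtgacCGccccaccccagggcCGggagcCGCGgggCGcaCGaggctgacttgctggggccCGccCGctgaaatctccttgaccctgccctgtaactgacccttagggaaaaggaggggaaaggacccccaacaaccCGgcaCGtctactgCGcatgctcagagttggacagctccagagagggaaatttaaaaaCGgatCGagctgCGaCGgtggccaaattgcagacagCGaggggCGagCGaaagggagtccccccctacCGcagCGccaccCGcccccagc
Foxa3: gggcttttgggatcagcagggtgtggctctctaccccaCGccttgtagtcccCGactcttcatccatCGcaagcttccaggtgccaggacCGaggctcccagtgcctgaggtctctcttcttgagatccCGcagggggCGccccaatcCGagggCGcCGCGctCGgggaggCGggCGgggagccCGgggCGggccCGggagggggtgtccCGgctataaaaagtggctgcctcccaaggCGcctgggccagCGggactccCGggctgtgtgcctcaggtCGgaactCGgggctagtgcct
Foxr1: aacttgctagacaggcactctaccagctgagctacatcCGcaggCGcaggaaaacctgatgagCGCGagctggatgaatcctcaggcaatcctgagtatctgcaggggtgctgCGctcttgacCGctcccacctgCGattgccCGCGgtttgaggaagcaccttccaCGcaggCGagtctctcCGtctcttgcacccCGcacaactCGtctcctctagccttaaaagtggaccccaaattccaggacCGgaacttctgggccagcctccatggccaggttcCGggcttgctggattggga
Foxc1: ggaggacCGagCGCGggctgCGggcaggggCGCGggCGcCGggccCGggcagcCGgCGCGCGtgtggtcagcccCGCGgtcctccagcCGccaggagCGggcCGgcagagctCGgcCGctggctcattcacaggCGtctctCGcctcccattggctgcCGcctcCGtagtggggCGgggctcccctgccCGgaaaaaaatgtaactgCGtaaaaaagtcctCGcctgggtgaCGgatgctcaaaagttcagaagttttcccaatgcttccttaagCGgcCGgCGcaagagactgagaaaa
Foxo3: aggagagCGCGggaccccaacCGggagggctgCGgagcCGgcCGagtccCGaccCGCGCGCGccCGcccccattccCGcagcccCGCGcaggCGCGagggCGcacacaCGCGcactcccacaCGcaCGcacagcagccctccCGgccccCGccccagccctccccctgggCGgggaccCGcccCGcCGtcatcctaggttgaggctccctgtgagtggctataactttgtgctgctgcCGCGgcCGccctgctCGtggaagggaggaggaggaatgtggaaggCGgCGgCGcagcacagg
The Foxn4 window lies at chr5:114273712-114274011 on the minus strand and holds 22 CpG sites, and the Foxa3 window, at chr7:19023490-19023789 on the minus strand, holds 22 as well. That is more than in 76.9% of all windows. The Foxr1 window (chr9:44440819-44441118, minus strand) holds 16, the Foxc1 window (chr13:31806396-31806695, plus strand) 32 and the Foxo3 window (chr10:42276646-42276945, minus strand) 35. Foxn4 and Foxa3 thus had the same number of sites, and Foxr1 fewer. The forkhead core motif TGTTTAC, searched on both strands, was in 1 of the 22 member windows, that of Foxa1, and in 3.65% of all windows; such a match is a description of letters and not a binding site.

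Genes that act with the widely expressed members were followed as lists, and none of them was called. Of 25 FOXO regulators and targets, 23 were tested, with 15 negative log2 fold changes, a median of -0.10 and 0 called or at an unadjusted p under 0.05 in edgeR. Of 18 FOXM1 targets of G2 and M phase all were tested, 13 with positive log2 fold changes, with a median of 0.06 and 0 called. Of 10 partners of FOXK proteins, among them Bap1 and Asxl1, all were tested, 7 with negative log2 fold changes, with a median of -0.13 and 0 called.

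Cell types other than germ cells were followed by lists of their markers, and no marker was called. The neuroectoderm sum was lower in every Ezh2 KO library than in every Ctrl library. The epidermal and T cell sums were higher in this way. Among single tested genes 4.03% were lower and 4.07% higher in this way, and no such share was computed for sums. Neuroectoderm markers summed to 2.37 to 3.17 CPM in Ctrl and 0.840 to 1.07 CPM in Ezh2 KO over 7 matched genes. Of these, 3 were tested, all with negative log2 fold changes, 2 of them at an unadjusted p under 0.05 (Neurog1 and Lhx2), and Emx2 had no read. Fibroblast markers summed to 5.13 to 9.75 CPM in Ctrl and 2.66 to 6.47 CPM in Ezh2 KO (8 matched, 4 tested, 3 of them negative). These ranges overlapped, and Col1a2 was lower (unadjusted p = 0.0328 in edgeR). Mesoderm markers summed to 5.61 to 12.2 CPM and 5.71 to 10.8 CPM (8 matched, 5 tested). Endothelium and blood markers summed to 126 to 201 CPM and 124 to 206 CPM, nearly all of it Pecam1, which early germ cells also express. Epidermal markers summed to 2.10 to 3.87 CPM and 7.01 to 9.85 CPM, most of it Krtdap (1.55 to 3.12 CPM and 6.23 to 9.38 CPM). Krtdap had an unadjusted p of 0.00123 in edgeR. Trophoblast markers summed to 22.4 to 35.9 CPM and 22.3 to 40.1 CPM. Of these, Elf5 was higher (unadjusted p = 0.0327 in edgeR) and Cdx2 lower (unadjusted p = 0.0247 in edgeR). T cell markers, fixed because of Foxp3, summed to 37.5 to 38.2 CPM and 41.5 to 44.0 CPM, nearly all of it Lck, with Ptprc at 1 read in all. Of 6 matched T cell genes 2 were tested, 1 with a positive log2 fold change (Lck) and 1 with a negative one (Cd3e). The 9 germ cell markers summed to 1587 to 1774 CPM in Ctrl and 1256 to 1697 CPM in Ezh2 KO. All 9 were tested, 7 with negative and 2 with positive log2 fold changes, with a median of -0.29 and 0 called. The part of such cells in the values of Foxn4, Foxa3, Foxc1 and Foxp2 was not tested.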

How the data were processed

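RNA-seq libraries of day 4 PGCLCs were analysed, 3 Ctrl and 3 Ezh2 KO. Raw counts of reads for each Ensembl ID, in whole numbers, were deposited by the authors in 1 table. Per the submitters' processing notes, the tools were TopHat2 2.0.11, Trimmomatic 0.33, featureCounts and CASAVA 1.8.4 and the builds NCBIM37 and mm9; their settings, strand use and annotation are not stated there.

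Symbols came from GENCODE M21 by gene ID (32919 of 37991 IDs), as did exon lengths for RPKM and transcript GC content; no coordinates of it are printed. Genes kept by filterByExpr (minimum count 10) were scaled by TMM. The test was edgeR's robust quasi-likelihood test (edgeR 4.0.16, R 4.3.3) of a two-sided difference between the groups, with no other term, Benjamini-Hochberg adjusted over 16420 genes at 0.05. CPM of untested genes used the same factors.

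Deviations from the group means of same-numbered libraries correlated (0.58, 0.37 and 0.19 over 16420 genes), so the numbers were taken as pairs. This pairing comes from the data, not the labels, and the correlations of differently numbered libraries were not computed. Alternatives were DESeq2 1.42.0 and its size factors, limma-voom (limma 3.58.1), other filters, the replicate block and leaving out each library. Chosen after seeing the data were an offset for GC content, leaving out 2 libraries together, and DESeq2 with the block without each pair.

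The members, classes and 14 gene lists were chosen with earlier results of these data known. Values were to be given for tested members at an unadjusted p under 0.05, the 3 largest rises and falls, the 5 of highest RPKM, tested lineage-restricted members and members called by any fit; other members were described after their values were seen.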

Additional observations from a re-analysis of the deposited data

How the results depend on the processing

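The call of 0 genes and 0 forkhead members by edgeR held at a threshold of 0.10, with size factors of DESeq2, limma-voom, both other filters, the replicate block, the GC offset with and without it, and each library left out. DESeq2 called 20 genes and 0 members, and DESeq2 with the replicate block 50 genes and 1 member (Foxn4). Members at an unadjusted p under 0.05 numbered 1 as reported, 0 in limma-voom and under the stricter filter (which drops Foxa3), 3 with no filter, and 2 with the replicate block in edgeR, in DESeq2 and with the GC offset; with 1 library left out they numbered 0 to 2. The median of the lineage-restricted members was 0.39 under the stricter filter, 0.11 without the 2 outermost libraries (Ctrl replicate 1 and Ezh2 KO replicate 2), -1.17 with no filter, and -1.53 to -0.01 with 1 library left out (Foxa1 is counted too without Ctrl replicate 2 or Ezh2 KO replicate 2, and other filters also change the genes counted); that of the genes most cells use ran from -0.16 to 0.05 with 1 library left out. Ezh2 ran from -0.71 to -0.37 in the same way.

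Of the refitted values of the 18 members, 39 changed sign, 247 kept sign and call, and 1 gained a call. The cause was not tested. Without the 2 outer libraries Foxh1 was at 0.12, Foxj2 at -0.0555, Foxk1 at 0.0545, Foxm1 at 0.15, Foxn2 at -0.25, Foxn3 at -0.0415, Foxo1 at -0.0021, Foxo4 at 0.0525, Foxp1 at 0.0934 and Foxp4 at 0.73. Under the GC offset Foxd3 was at 0.0532, Foxk1 at 0.21, Foxn2 at -0.0151 and Foxp4 at 0.15, and with the replicate block added Foxk1 was at 0.22 and Foxp4 at 0.15. Foxk1 was also at 0.0176 in limma-voom, at 0.0026 under the stricter filter, at 0.0155 with the replicate block and at 0.0074 in DESeq2 with the replicate block, and Foxn2 at -0.0026 with no filter. With 1 library left out, the range was -0.41 to 1.60 for Foxj1, -0.18 to 0.43 for Foxj2, -0.0384 to 0.26 for Foxj3, -0.16 to 0.15 for Foxk1, -0.25 to 0.0461 for Foxk2, -0.27 to 0.38 for Foxn2, -0.0832 to 0.26 for Foxo1, -0.0783 to 0.29 for Foxo3 and -0.61 to 0.32 for Foxp4. The block changed no other call. Depth limits the 20 lowest lineage-restricted genes, which held 9 to 50 reads per library together.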
